A study of Mus musculus with 1 sample.

Results

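Connexins and pannexins are 2 families of membrane proteins that form large pores for ions, ATP and small metabolites. The 9 genes described here are Gja1, Gjb2 and Gjb6, whose products are connexins of astrocytes, Gjc3, a connexin of oligodendrocytes, Gja4, Gja5 and Gjc1, connexins of blood vessels, and the pannexin genes Panx1 and Panx2. They were taken by gene symbol from the 23282 rows of the expression table, and each of the 9 had 1 row. The glia were mixed primary cultures from the ventral midbrain (VM) of ICR(CD-1) outbred mouse pups, given as postnatal day 5, grown in serum-containing medium and replated with trypsin onto poly-d-lysine. The study asked what inhibition of the kinase SGK1 with GSK650394 does to such glia. A single RNA-seq library was analysed, labelled as control and, in the heading of its values, mAst_Cont_DMSO. The study's text also describes the control as given the vehicle DMSO. The mAst of the heading may stand for mouse astrocytes, whereas the study's text describes mixed glia. Libraries with the inhibitor were not analysed here. How many pups or flasks went into the control library was not stated. Because the group had 1 library, spread between cultures could not be measured, values are given without errors, and differences between genes are described and not tested.

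Connexin subunits assemble into hemichannels, and hemichannels of neighbouring cells dock to form gap junctions. Astrocytes are coupled into a network in this way, mainly through Cx43 (encoded by Gja1) and, in mature tissue, also Cx30 (Gjb6), and they are joined to oligodendrocytes by channels that pair astrocyte with oligodendrocyte connexins. Endothelial and smooth muscle cells of vessels use Cx37 (Gja4), Cx40 (Gja5) and Cx45 (Gjc1). Pannexins have a similar fold but do not usually form junctions, and Panx1 is best known as a channel that releases ATP.

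The connexins among these genes share a signature by which the family is known. The spacing searched for was taken from known connexins, so its presence in them is a description and not a test. Docking depends on cysteines in the extracellular loops, and the first loop carries 3 of them, with 6 and then 3 residues between. The 36 bases that encode this stretch are shown for the 7 connexins. They were read from the GENCODE M21 transcripts (GRCm38), 5′ to 3′ on the coding strand, with the cysteine codons in capitals.
Gja1: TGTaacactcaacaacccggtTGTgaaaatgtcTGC
Gjb2: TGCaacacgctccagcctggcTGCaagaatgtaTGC
Gjb6: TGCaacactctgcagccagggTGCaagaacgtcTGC
Gjc3: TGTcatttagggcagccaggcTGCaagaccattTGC
Gja4: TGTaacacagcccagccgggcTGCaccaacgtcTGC
Gja5: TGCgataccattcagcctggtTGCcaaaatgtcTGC
Gjc1: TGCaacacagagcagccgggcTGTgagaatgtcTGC

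The stretch lies within 1 exon in each gene. It is at chr10:56387706-56387741 on the plus strand for Gja1, chr14:57100558-57100593 on the minus strand for Gjb2 and chr14:57124611-57124646 on the minus strand for Gjb6. It is at chr5:137957797-137957832 (minus) for Gjc3, chr4:127312774-127312809 (minus) for Gja4, chr3:97050788-97050823 (plus) for Gja5 and chr11:102800984-102801019 (minus) for Gjc1. Of the 36 bases, between 18 (Gjc3) and 28 (Gjc1) were the same as in Gja1. The cysteine spacing was found in 19 of 20 mouse connexin genes, Gje1 being the exception, and in 0 of 3 pannexin genes. Among 21547 complete coding sequences of the annotation, 2.10% held it. The spacing of the second loop (4 or 5 residues, then 5) followed at least 50 residues later in the same 19 connexins, and in 0.580% of all coding sequences.

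Across the whole coding sequence the members were far from identical. Of the 21 pairs of member connexins, Gjb2 and Gjb6 were the closest, with 77.0% of the residues of the shorter translated protein identical, and Gjc3 with Gja1 and Gjc3 with Gja4 the farthest, both with 31.6%. Panx1 and Panx2 shared 29.6%, with 126 identical residues of 426. The 14 pairs of a connexin with a pannexin ran from 19.5% (Gja4 and Panx1) to 29.7% (Gjc3 and Panx2, 80 of 269). Proteins were aligned end to end, and a short protein spread over a longer one can gain matches. The percentages of pairs with unlike lengths therefore do not rank how related the proteins are. As a rough check on reads shared within the family, transcripts were cut into all stretches of 50 bases. No such stretch in the transcripts of any of the 23 connexin and pannexin genes occurred in the transcripts of another of them. The study's methods give no read length, and shorter or mismatched reads were not covered by this check. Of the 50-base stretches of Gja5, 15.3% also occurred in transcripts of Gpr89 or Zfp697, but only 2 of these lay in its coding sequence. For Gjc3 2.07%, and for Gje1, not a member, 5.52% also occurred in transcripts of other genes, with 0 in either coding sequence. For Gja1 it was 0.115%, for Gjc1 0.0396% and for the remaining members 0. Gja5 was also the member whose exons overlapped another gene, with 165 of 5746 exon bases on the strand opposite Gpr89 exons.

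A gene was taken as detected when its value, a normalised read count as the authors describe it, was 10 or more. Of the 9 members, 5 were detected (Gja1, Gjc1, Gja5, Panx1 and Gjc3), against 67.2% of all rows. That share of all rows is also the background for each count of detected markers and list genes below. Gjb2, Gjb6 and Gja4 had values of 1 to 9, and Panx2 was listed at 0. At a minimum of 1, which 78.2% of all rows passed, 8 members passed, at 3 (73.9% of rows) 7 did, and at 100 (51.6% of rows) 4 did.

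**Figure D1:**
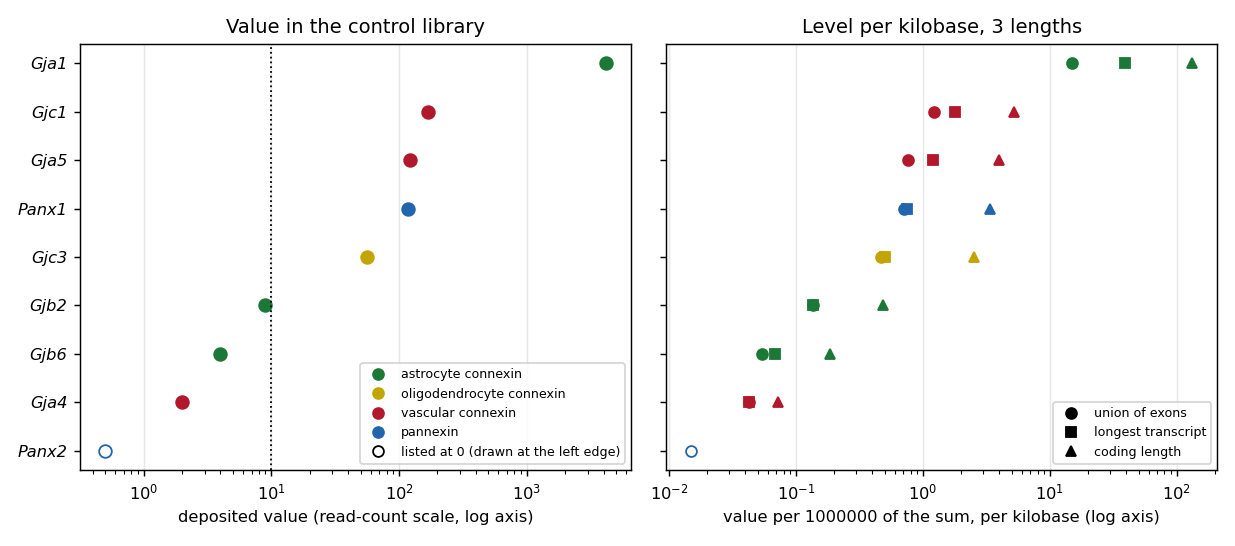
Values of the 9 members in the control library, as deposited (left, log axis, dotted line at the detection minimum of 10) and per 1000000 of the sum per kilobase for 3 definitions of gene length (right, log axis); each point is 1 gene in 1 library without error bars, and Panx2, listed at 0, is an open circle at the left edge. The order of the genes is the same in both panels, with Gja1 at 4192 and the next, Gjc1, at 170.

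Gja1 stood apart from every other member. This gene (chromosome 10, 56377330 to 56402513, plus strand) encodes Cx43, the main gap junction protein of astrocytes, which fibroblasts and smooth muscle cells also use. Its value was 4192, or 152 per 1000000 of the sum of all values, and 92.6% of detected genes lay below it. Levels of different genes are compared here only per length, as the value per 1000000 per kilobase of annotated exon. On that scale Gja1 was at 14.8, above 79.3% of detected genes, whose median was 3.72. Retained introns and processed transcripts lengthen its annotated exons to 10257 bases, and with its longest protein-coding transcript of 3182 bases the level was 47.8. Gjc1 was the next member, and Gja1 was 3.59 above it on the log2 scale of level per kilobase. With protein-coding transcript lengths the level of Gja1 was 17.9 times that of Gjc1.

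The other astrocyte connexins were near the floor of the table. Gjb6 (chromosome 14, 57123303 to 57133611, minus strand), which encodes Cx30, had a value of 4 and a level of 0.0543 per kilobase. Gjb2 (chromosome 14, 57098600 to 57104702, minus strand), which encodes Cx26 and is also a connexin of the meninges, had a value of 9 and a level of 0.136. Gja1 was 8.09 above Gjb6 on the log2 scale of level per kilobase, a ratio of 273, and 693 with protein-coding transcript lengths. Both ratios rest on a value of 4 for Gjb6, for which no counting error can be given. Gjb2 exceeded Gjb6 by 1.32 on the same scale, a difference between values of 9 and 4.

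These low values stood beside astrocyte markers that were detected throughout. Of 10 astrocyte markers, 10 were detected, with a median level of 24.8 per kilobase. The intermediate filament gene Gfap was at 148, the sodium pump subunit gene Atp1b2 at 136, the aldolase gene Aldoc at 64.5 and, lowest, the receptor gene Fgfr3 at 2.45. The level of Gja1 was 0.597 times the marker median, with 4 of the 10 markers below it. With protein-coding transcript lengths it was 1.84 times the median, with 7 below it. Gjb6 was at 0.00219 times the marker median and Gjb2 at 0.00547 times, and both were below each of the 10 markers. In a bulk library, fewer cells of a type and less RNA per cell cannot be told apart. Fibroblasts, meninges and ependymal cells can also use Gja1, and the meninges Gjb2. Of 10 fibroblast and meninges markers, 10 were detected, with a median level of 13.2. They ranged from Fn1 at 297 to Slc6a13 at 0.125, so their median stands for no single cell type. Gjb2 was at 0.0103 times that median, above Slc6a13 only. With protein-coding transcript lengths it was at 0.00466 times and above 0 of them. Of 8 ependymal markers, 8 were detected, with a median level of 6.66. The part of these cells in the Gja1 and Gjb2 values was not tested.

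**Figure D2:**
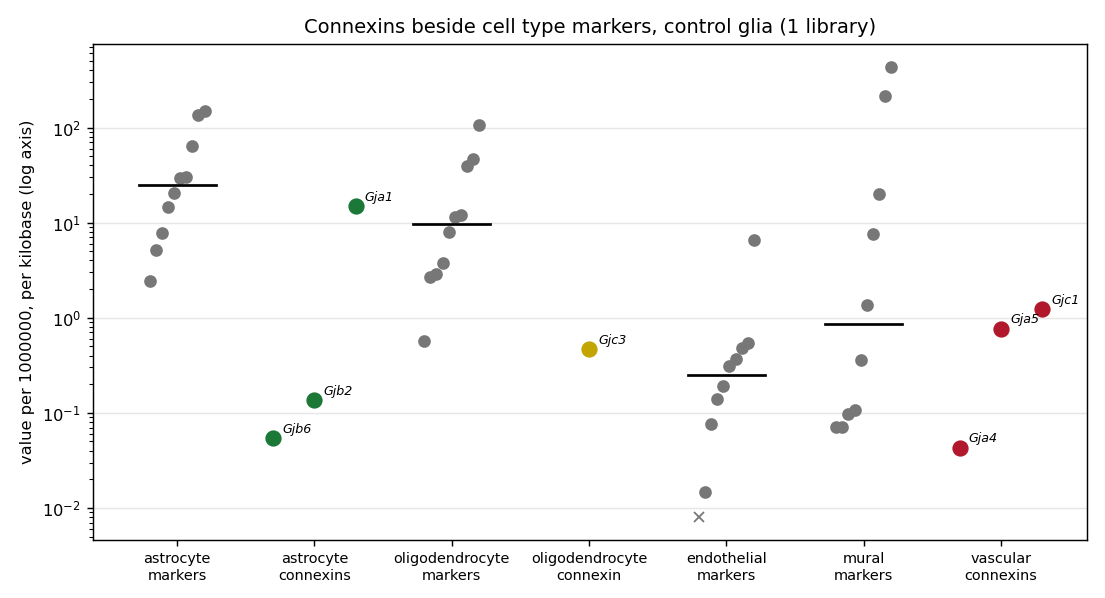
Levels of the connexins beside markers of 4 cell classes in the control library, as the value per 1000000 of the sum per kilobase of exon on a log axis, where each point is 1 gene, black bars are marker medians (24.8 for astrocytes, 9.77 for the oligodendrocyte lineage, 0.253 for endothelium and 0.859 for mural cells), and the cross is Tek, listed at 0 and drawn at the left bottom of its column. Gja1 lies among the astrocyte markers, Gjb6, Gjb2 and Gjc3 lie below every marker of their class, and Gja5 and Gjc1 lie above 9 of the 10 endothelial markers.

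The oligodendrocyte connexin Gjc3 (Cx29; chromosome 5, 137953461 to 137963098, minus strand) was detected at a value of 56, with a level of 0.466 per kilobase, above 13.8% of detected genes. Gja1 exceeded it 31.8-fold per kilobase of exon, and 94.1-fold with protein-coding transcript lengths. Gjb1 (Cx32), a connexin of myelin that is not among the 9, had a value of 30 and a level of 0.637. All 10 markers of the oligodendrocyte lineage were detected, with a median level of 9.77. The myelin gene Mbp was at 47.0, the myelin enzyme gene Cnp at 39.2, and the lineage transcription factor Sox10 was lowest at 0.571. Gjc3 was at 0.0477 times the marker median, below each of the 10 markers, while Gjb1 was at 0.0653 times and above 1 marker. The log2 ratio of the level per kilobase of Gjb2 to that of Gjc3 was -1.78, so the oligodendrocyte connexin exceeded the second astrocyte connexin.

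The 3 vascular connexins differed widely among themselves. Gjc1 (Cx45; chromosome 11, 102799579 to 102819700, minus strand), which smooth muscle and pericytes use, was highest, with a value of 170 and a level of 1.23, above 27.7% of detected genes. Gja5 (Cx40; chromosome 3, 96904693 to 97077416, plus strand), an arterial endothelial connexin, had a value of 121 and a level of 0.764, above 20.4%. Gja4 (Cx37; chromosome 4, 127311421 to 127314039, minus strand), which arterial endothelium and mural cells use, had a value of 2 and a level of 0.0431. Gjc1 was 4.84 above Gja4 on the log2 scale of level per kilobase, and the log2 ratio of Gja4 to Gja5 was -4.15. Both differences rest on the value of 2 for Gja4.

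Endothelial markers were mostly low in level. Of 10, 7 were detected, against 67.2% of all rows, so the count itself shows no shortage. Their median level was 0.253, above 7.61% of detected genes. The VEGF receptor genes Flt1 and Kdr were at 6.52 and 0.478 and Egfl7 at 0.547, while the defining genes Pecam1 and Cdh5 were at 0.192 and 0.371, Cldn5 and Tie1 had values of 3 and 2, and the angiopoietin receptor gene Tek was listed at 0. The level of Gja5 was 3.02 times the endothelial median and that of Gjc1 4.87 times, each above 9 of the 10 markers, whereas Gja4 was at 0.170 times and above 2 of them. Of 10 mural and smooth muscle markers, 8 were detected. The highest were the contractile genes Acta2 and Tagln at levels of 438 and 215. The lowest were the pericyte genes Rgs5 and Kcnj8 at levels of 0.0718 and 0.0712. Contractile and pericyte genes overlapped in level. The pericyte gene Pdgfrb was at 7.61, above the muscle genes Myh11 at 1.36 and Des at 0.0966, but below the contractile gene Cnn1. Gjc1 was at 1.43 times the median of the 10 markers (0.859) and Gja5 at 0.889 times, each above 5 of the 10 markers. With protein-coding transcript lengths Gjc1 was at 2.75 times the mural median, above 6 markers, and Gja5 at 1.23 times, above 5, so the side of the median on which Gja5 lies depends on the length used. Against the endothelial median, Gjc1 was then at 7.81 times, above 9 markers, and Gja5 at 3.50 times, above 8. Which cells held the Gja5 and Gjc1 transcripts was not tested. Gja5 shares exon bases with Gpr89, which had a value of 327, and the part of Gpr89 reads in the Gja5 value was not tested either.

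Panx1 (chromosome 9, 15002128 to 15045478, minus strand) had a value of 118 and a level of 0.710 per kilobase, above 19.3% of detected genes. That is next to Gja5 in the order of the members, at values of 121 and 118, and without a replicate the order of the pair cannot be given a spread. Panx2 (chromosome 15, 89059734 to 89073567, plus strand), a pannexin of neurons and glia, was listed at 0, so no ratio to Panx1 is given. Panx3, the third pannexin, was listed at 0 as well. Of 10 neuron markers, 7 were detected, with a median level of 0.292. The highest, the tubulin-binding protein gene Stmn2, was at 24.6, the neurofilament gene Nefm at 3.19 and Tubb3 at 2.41, all above Panx1, while Slc17a6 was listed at 0. Their part in the Panx1 value was not tested.

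By group, the level per kilobase summed over the 9 members was held to 82.4% by the 3 astrocyte connexins, 11.2% by the 3 vascular connexins, 3.89% by the pannexins and 2.56% by the oligodendrocyte connexin. Gja1 alone held 81.3%, so the astrocyte share is that of 1 gene. Fibroblasts and smooth muscle cells also use Gja1, so these are shares of gene groups and not of cell types. Over all 23 connexin and pannexin genes it held 59.6%. With protein-coding transcript lengths, the astrocyte share was 90.3%, the vascular share 7.35%, the pannexin share 1.40% and the oligodendrocyte share 0.955%.

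The other 14 connexin and pannexin genes give the frame for these values. Of them, 6 were detected, against 67.2% of all rows, 4 had values of 1 to 9, and 4 were listed at 0 (Gja10, Gjd2, Gjd3 and Panx3). Gjd2 encodes Cx36, the connexin of neuronal electrical synapses. Gja3, a lens connexin, had a value of 30 and a level of 0.367 per kilobase, and Gje1 a value of 12 and a level of 0.294. With exon lengths, Gja1 was the only one of the 23 genes above the median level of detected genes.

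The astrocyte connexins Gjb2 and Gjb6 are neighbours in the genome. On chromosome 14 they lie with Gja3 within 99.2 kb, all on the minus strand, and the 3 genes were low, with values of 9 for Gjb2, 4 for Gjb6 and 30 for Gja3. None of the 3 had exons that overlapped another annotated gene, and none shared a 50-base stretch with another gene.

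Gap junctions are anchored, moved and degraded by partner proteins, and a list of 16 genes of junction scaffolds and protein turnover was examined beside the connexins. Not every gene of the list is an established connexin partner. All 16 were detected, with a median level of 15.7 per kilobase, above 80.2% of detected genes. The highest were Ctnnb1 (β-catenin) at 96.4, Ubxn4 at 46.5 and Tsg101, which sorts ubiquitylated cargo to lysosomes, at 46.1. Ubxn4 is a general gene of ubiquitin-dependent degradation at the endoplasmic reticulum, and its product is not taken here as a connexin partner. Tjp3, a tight junction scaffold, was lowest at 1.04. Of the 16 genes, 8 were above Gja1 per kilobase, Ubxn4 among them. With protein-coding transcript lengths 4 were. Tjp1 (ZO-1), whose product binds the tail of Cx43 and which is given for that role after its value was seen, was at 7.59.

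A second list held other large-pore channels and ATP receptors, to which pannexins are functionally related. Of its 15 genes, 14 had a row and 11 were detected, with a median level of 1.69, above 33.1% of detected genes. The volume-regulated channel gene Lrrc8a was highest at 13.7, although 2944 of its exon bases overlap other annotated genes, followed by the ATP receptor genes P2rx4 at 11.5 and P2rx7 at 8.49. P2rx7 has been linked to the opening of Panx1, which was at 0.710 on the same scale. Microglia are rich in both receptors, and 10 of 10 microglia markers were detected, with a median level of 155, the highest of the marker lists. Marker levels give no cell numbers, and the study describes its VM glia as mostly GFAP-positive astrocytes with fewer Iba1-positive microglia. The part of microglia in these receptor values was not tested. Calhm4 was listed at 0, and Calhm1 and Calhm6 had values of 1 and 8. Of the 14 genes, 10 were above Panx1 and 0 were above Gja1 per kilobase.

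**Figure D3:**
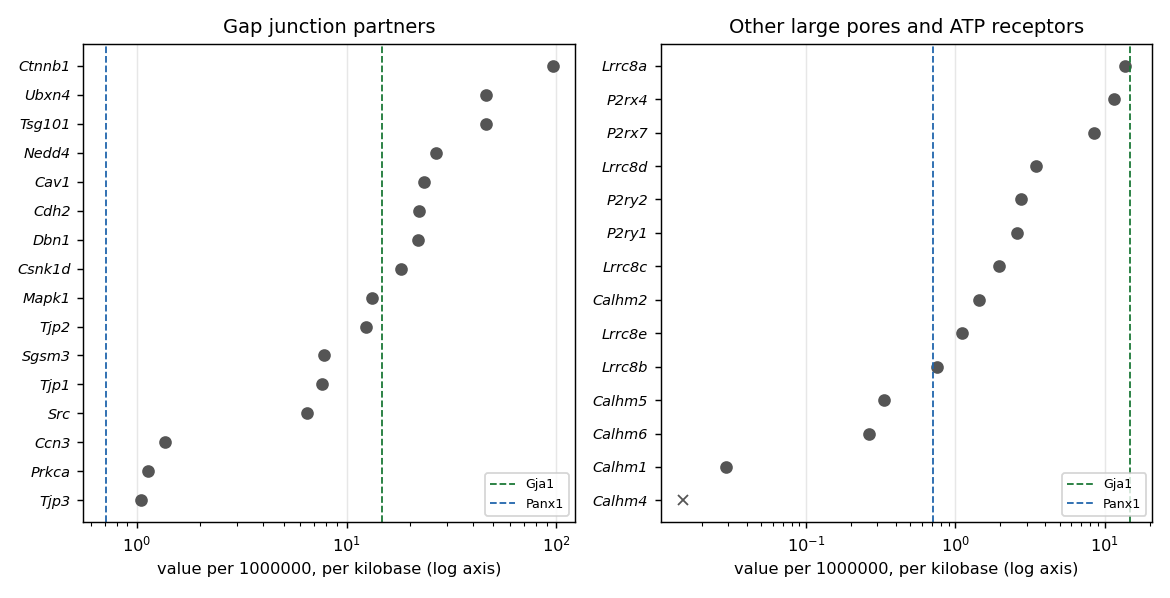
Levels of 16 genes of junction scaffolds and protein turnover (left) and 14 genes of other large pores and ATP receptors (right) in the control library, as the value per 1000000 of the sum per kilobase of exon on a log axis, where dashed lines mark Gja1 (14.8, green) and Panx1 (0.710, blue), and the cross is Calhm4, listed at 0 and drawn at the left edge. Scaffold and turnover genes lie on both sides of Gja1, with 8 above it, while each of the other pore and receptor genes lies below Gja1.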

How the data were processed

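Per the study's methods, the authors trimmed reads at a quality of 20, mapped them to GRCm38/mm10 with STAR, and used HTSeq-count on RefSeq (Release 105) exons. The submitters' processing notes name TopHat and edgeR. The deposited values are read counts that the authors describe as normalised, in a way not stated. They were whole numbers with a sum of 27569507, as plain counts would be, and whether any scaling was applied could not be settled. The deposited values were therefore treated as a score, not as raw counts. The read depth is unknown, and no counting interval or floor is given. Strand setting and multi-mapped reads were not stated.

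Gene models came from GENCODE M21 (GRCm38), not the RefSeq release counted on; 22890 rows (98.3%) were matched by symbol or RefSeq synonym. Each value was divided by the sum, multiplied by 1000000, and divided by the union of exons in kilobases. Alternatives were other lengths, totals, minima and a pseudocount of 1 per 1000000. An alternative value was taken as unchanged within 1.5-fold. Calculations were checked on simulated data. Named genes were all members, family genes at 10 or more, and in other lists the 3 highest, the lowest and those at 0, with others named as stated or as defining markers. Some genes this rule covers are not reported here. Members and lists were chosen with earlier results of these data known. Python 3.11.15, numpy 2.4.6, pandas 2.3.3, Biopython 1.88 and matplotlib 3.10.9 were used.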

Additional observations from a re-analysis of the deposited data

How the results depend on the processing

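The order of the 9 members was the same under each of the 5 length settings, and no log2 ratio changed sign. Of 116 alternative values, 53 stayed within 1.5-fold of the reported value. Totals without the 10 highest genes or Rn45s moved no level beyond that. Dividing by coding length gave 133 for Gja1, 5.19 for Gjc1, 3.98 for Gja5, 3.35 for Panx1, 2.52 for Gjc3, 0.481 for Gjb2, 0.185 for Gjb6 and 0.0726 for Gja4. The longest transcript gave 39.1 for Gja1 and 1.20 for Gja5. The longest protein-coding transcript, chosen after the annotation of Gja1 was seen, gave 47.8 for Gja1, 1.20 for Gja5 and 2.66 for Gjc1. These moves follow from the shorter lengths. Without division by length, with the longest transcript, with coding length and with the protein-coding transcript, in that order, the oligodendrocyte share was 1.20%, 1.16%, 1.70% and 0.955%, the vascular share 6.27%, 6.99%, 6.22% and 7.35%, and the pannexin share 2.53%, 1.71%, 2.26% and 1.40%. Log2 ratios without division by length were 10.03 for Gja1 to Gjb6, 11.03 to Gja4, 5.11 to Gja5, 4.62 to Gjc1 and 6.23 to Gjc3, -2.64 for Gjb2 to Gjc3, 6.41 for Gjc1 to Gja4 and -5.92 for Gja4 to Gja5. With the longest transcript they were 9.15 for Gja1 to Gjb6, 9.83 to Gja4, 5.03 to Gja5, 4.44 to Gjc1 and 6.27 to Gjc3, and -4.80 for Gja4 to Gja5. With coding length they were 9.48 for Gja1 to Gjb6, 10.84 to Gja4, 5.06 to Gja5, 4.68 to Gjc1 and 5.72 to Gjc3, -2.39 for Gjb2 to Gjc3, 6.16 for Gjc1 to Gja4 and -5.77 for Gja4 to Gja5. With the protein-coding transcript they were 9.44 for Gja1 to Gjb6, 10.12 to Gja4, 5.32 to Gja5 and 6.56 to Gjc3, 5.95 for Gjc1 to Gja4 and -4.80 for Gja4 to Gja5. A pseudocount of 1 per 1000000 gave 5.12 for Gja1 to Gjb6, 4.55 for Gja1 to Gja4, 0.36 for Gjb2 to Gjb6, -0.34 for Gjb2 to Gjc3, 1.17 for Gjc1 to Gja4 and -0.56 for Gja4 to Gja5. At a detection minimum of 1, 8 members and 10 of the other 14 genes passed, against 78.2% of all rows. At a minimum of 3, 10 of the other genes passed, against 73.9% of all rows. At 100, 1 of the other genes did, against 51.6% of all rows. No alternative could leave out a replicate, and ratios to Gja4, Gjb6 and Gjb2 rest on values under 10 of unknown depth. No paired analysis was possible because there was 1 library.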
